A study of Mus musculus with 12 samples.

Results

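The genes described here control the passage of cells from the G1 phase into DNA replication: the D-type cyclins *Ccnd1*, *Ccnd2* and *Ccnd3*, the E-type cyclin *Ccne1*, the cyclin-dependent kinase (CDK) inhibitors *Cdkn1a*, *Cdkn1b*, *Cdkn2a* and *Cdkn2b*, and the transcription factors *E2f1* and *E2f2*. They were chosen by symbol from the expression values of mouse liver and liver tumors, and all 10 of them were among the 17007 genes listed. Expression was given as FPKM, that is, fragments per kilobase of exon after scaling for library size, so levels of different genes can be compared per length.

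The 12 libraries came from 4 groups of 3 mice each. Normal liver (NL) came from wild-type C57BL/6 mice that carried no plasmid and no tumor. The other 9 libraries came from c-MYC/MCL1/RictorKO Tsc2KO hepatocellular carcinomas, in which plasmids for c-MYC, MCL1 and Cre recombinase were pushed into hepatocytes of mice with floxed *Rictor* and *Tsc2* by a rapid injection into the tail vein. These mice received vehicle, MLN0128 or everolimus by mouth, both drugs at 1 mg/kg per day. The labels and the study's methods give 6 days a week for 3 weeks, beginning on day 6 after the injection, with sacrifice at 3.7 weeks. The study's results text gives 3 days for the tumors sequenced, so the length of treatment is uncertain. MLN0128 blocks the kinase of mTOR itself, and everolimus, a relative of rapamycin, inhibits mTORC1 in part. Since *Rictor*, a subunit of mTORC2, was targeted in every tumor group, vehicle included, no group tests either drug with mTORC2 intact. The Cre plasmid was not confined to a chosen cell type by its CMV promoter, only by the route of delivery, and each tumor sample also held uninjected cells of the host. Tumor against normal liver therefore compared plasmids, gene deletion, tumor growth and gavage all at once, which cannot be told apart.

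D-type cyclins bind CDK4 and CDK6, cyclin E binds CDK2, and these kinases phosphorylate the retinoblastoma protein and its relatives, which then release E2F factors to switch on genes for DNA replication. The products of *Cdkn2a* (p16INK4a) and *Cdkn2b* (p15INK4b) bind CDK4 and CDK6 and keep the D-type cyclins off, whereas the products of *Cdkn1a* (p21) and *Cdkn1b* (p27) bind complexes of cyclins with CDKs and stop cyclin E-CDK2 in particular. In liver, hepatocytes rest outside the cycle, induce cyclin D1 when they regenerate, and raise p21 when p53 is active.

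Promoter sequences from RefSeq (GRCm38.p6) covered 8 of the 10 genes, each window running from 250 bases before to 50 bases after a transcription start. Of the 12 windows, 4 are shown. *Ccne1*, *E2f1* and *E2f2* are the 3 genes in which the MLN0128 libraries lay below those with everolimus and above normal liver without overlap. *Cdkn2a* is shown because 1 of its 2 windows, like 1 of the 2 of *E2f2*, held an E2F-type motif. All are 5′ to 3′ on the strand of the gene, with the motif in capitals.
Ccne1, chr7:38107441-38107740, minus strand: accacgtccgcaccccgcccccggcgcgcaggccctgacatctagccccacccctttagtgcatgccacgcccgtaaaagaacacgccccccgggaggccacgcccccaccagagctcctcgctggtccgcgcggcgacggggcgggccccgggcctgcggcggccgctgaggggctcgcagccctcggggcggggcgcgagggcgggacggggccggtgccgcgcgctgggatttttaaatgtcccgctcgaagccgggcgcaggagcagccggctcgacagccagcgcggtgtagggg
E2f1, chr2:154569377-154569676, minus strand: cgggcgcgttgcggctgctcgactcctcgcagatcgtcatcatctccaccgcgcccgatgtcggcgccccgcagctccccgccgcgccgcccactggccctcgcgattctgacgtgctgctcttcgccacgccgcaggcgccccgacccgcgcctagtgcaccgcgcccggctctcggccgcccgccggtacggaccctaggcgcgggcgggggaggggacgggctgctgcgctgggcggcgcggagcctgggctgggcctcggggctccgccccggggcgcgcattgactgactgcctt
E2f2, chr4:136172024-136172323, plus strand: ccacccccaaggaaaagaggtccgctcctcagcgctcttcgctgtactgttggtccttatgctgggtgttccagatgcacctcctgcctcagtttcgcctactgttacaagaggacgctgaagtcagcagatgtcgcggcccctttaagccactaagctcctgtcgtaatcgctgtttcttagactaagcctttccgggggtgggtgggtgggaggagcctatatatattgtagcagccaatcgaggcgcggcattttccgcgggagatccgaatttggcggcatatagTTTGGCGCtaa
Cdkn2a, chr4:89294570-89294869, minus strand: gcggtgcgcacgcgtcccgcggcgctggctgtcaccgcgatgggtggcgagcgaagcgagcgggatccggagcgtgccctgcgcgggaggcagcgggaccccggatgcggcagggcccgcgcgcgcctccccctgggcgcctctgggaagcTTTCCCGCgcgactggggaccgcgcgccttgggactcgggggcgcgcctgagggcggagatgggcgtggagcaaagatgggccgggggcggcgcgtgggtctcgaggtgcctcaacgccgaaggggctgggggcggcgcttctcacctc
Searched on both strands were the E2F letters TTTCCCGC, TTTGGCGC, TTTCGCGC and TTTGCCGC, the E-box CACGTG that MYC-MAX dimers bind, and the p53 consensus. An E2F motif was held by 744 of all 32851 windows of the same length (2.26%), an E-box by 2349 (7.15%) and the p53 consensus by 3 (0.00913%). Among the 8 genes covered, TTTGGCGC began 39 bases after the *E2f2* start shown and TTTCCCGC began 99 bases before the *Cdkn2a* start shown. All other windows, including the other *E2f2* window and the other *Cdkn2a* window (chr4:89282143-89282442), held no match to these letters. The p53 consensus was searched at full length with no mismatch and no spacer, which hardly any window meets. A missing match therefore does not mean that a p53 site is absent, in the *Cdkn1a* windows included. Which *Cdkn2a* start gives the p16INK4a transcript was not assigned. The *E2f1* window lies inside the gene as annotated by GENCODE, with its 5′ end at 154569892, so the sequence before that end was not searched. A match is a description of the sequence and was not tested as a binding site.

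The deposited values corresponded to 17175647 to 25184062 reads per library, as recovered from FPKM and exon lengths. Over all 12 libraries, 92 to 1116 reads fell on *Ccnd1* and 150 to 2456 on *Ccnd2*, but at most 20 on *Cdkn2a* and at most 34 on *Cdkn2b*, whose values are the least precise. The authors' FPKM carried a scaling beyond the read totals, with factors of 0.591 to 0.602 in normal liver and 1.11 to 1.38 in tumors, so each comparison with normal liver rests on it. *Xist*, transcribed from the inactive X chromosome, stood at 191 and 155 FPKM in MLN0128 replicates 1 and 2 and at 0.0699 FPKM or less in the other libraries, so that X chromosome content differed within the MLN0128 group and between it and the rest. Of the targeted genes, *Tsc2* ranged from 4.50 to 5.32 FPKM in normal liver, 2.01 to 2.31 FPKM with vehicle, 2.81 to 3.96 FPKM with MLN0128 and 2.78 to 2.87 FPKM with everolimus, so that all tumors lay below normal liver. *Rictor* ranged from 1.65 to 2.57 FPKM in normal liver, 1.05 to 1.5 FPKM with vehicle, 1.65 to 2.21 FPKM with MLN0128 and 1.58 to 1.93 FPKM with everolimus, and both drug groups overlapped with normal liver. These are whole-gene values that do not isolate the deleted exons. The 10 hepatocyte markers summed to 89401 to 109050 FPKM in normal livers, 5419 to 7740 FPKM under vehicle, 2823 to 6008 under MLN0128 and 4327 to 9893 under everolimus, and all 10 passed as lower under vehicle than in normal livers.

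In vehicle-treated tumors, 8 of the 10 genes were higher and 1 was lower than in normal liver by limma's moderated test on log2(FPKM + 1), at a Benjamini-Hochberg adjusted p under 0.05 over 14393 tested genes. *Cdkn1a* and *Ccne1* rose most, *Ccnd1* fell and *Ccnd3* did not pass the test. *Cdkn2a* and *Cdkn2b*, among the 8, passed the filter on low values (0.5 FPKM in 3 libraries) through the vehicle libraries alone. With a filter of 1 FPKM in 3 libraries, which left both out, 7 genes changed, beside 4795 higher and 4392 lower of 12767 genes. *E2f2* passed either filter, and *Cdkn1a* this stricter filter, through tumor libraries alone, so these increases were in part fixed by filtering. Over all tested genes 36% were higher and 33% lower, so that passing this test was common. At a stricter test, limma's treat against a 1.5-fold change, 5 genes (*Ccnd2*, *Ccne1*, *Cdkn1a*, *E2f1*, *E2f2*) remained higher, beside 32.7% of all genes in either direction. The log2 fold changes had a median of 1.14 over the 10 genes and of 0.06 over the genes tested. The libraries of vehicle and normal liver did not overlap for 8 of the 10 genes, *Cdkn2a* and *Cdkn2b* included (background 74.1%).

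With MLN0128, 7 of the 10 genes were lower than with vehicle and none was higher (background 17.1% lower, 14.9% higher): *Ccnd2*, *Ccnd3*, *Ccne1*, *Cdkn2a*, *Cdkn2b*, *E2f1* and *E2f2*. The counts were the same at an unadjusted p under 0.05. Every background share of a test is at an adjusted p under 0.05, and none is given for an unadjusted p. With everolimus, 3 were lower and none was higher (background 6.04% lower, 3.77% higher): *Ccnd2*, *E2f2* and *Cdkn2a*. At an unadjusted p under 0.05, *Cdkn2b* joined them, for 4 lower and none higher. These counts include *Cdkn2a* and *Cdkn2b*, which passed the filter only through the vehicle libraries, so their decreases were in part fixed by it. With the filter of 1 FPKM in 3 libraries, which left both out, 5 genes changed with MLN0128 (beside 2346 lower and 1894 higher of 12767 genes). With everolimus 2 changed (beside 796 lower and 553 higher). *E2f2*, counted with both drugs, passed that filter through vehicle and everolimus libraries alone, so its decrease with MLN0128 was there in part fixed. By treat, *Ccnd2* and *E2f2* were lower with MLN0128 (background 2.13% in either direction), and 0 genes changed with everolimus (background 0.604%), where only *Ccnd2* had an unadjusted treat p under 0.05. Compared directly, *Ccne1* and *E2f2* were lower with MLN0128 than with everolimus (background 5.54% lower) and treat called 0 genes (background 0.0417%), with 1 gene, *Ccne1*, at an unadjusted p under 0.05. When MLN0128 replicates 1 and 2 were left out, the group rested on replicate 3 alone. Its spread was then assumed to equal that of the other groups, as in every test with that replicate alone. Against vehicle the log2 fold changes in that setting were −1.42 for *Ccnd2*, −1.29 for *E2f2* and −0.99 for *Ccne1*. Between the drugs that of *Ccne1* was −0.85. Fewer of the 10 genes passed in that setting, as did fewer of all genes. Libraries did not overlap for 7 genes between MLN0128 and vehicle, 5 between everolimus and vehicle and 5 between the drugs (background 45.5%, 32.4% and 27.7%). *Cdkn2a* and *Cdkn2b* were among the genes without overlap in both comparisons with vehicle. The comparisons of the 2 drugs with vehicle share the vehicle libraries.

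**Figure D1:**
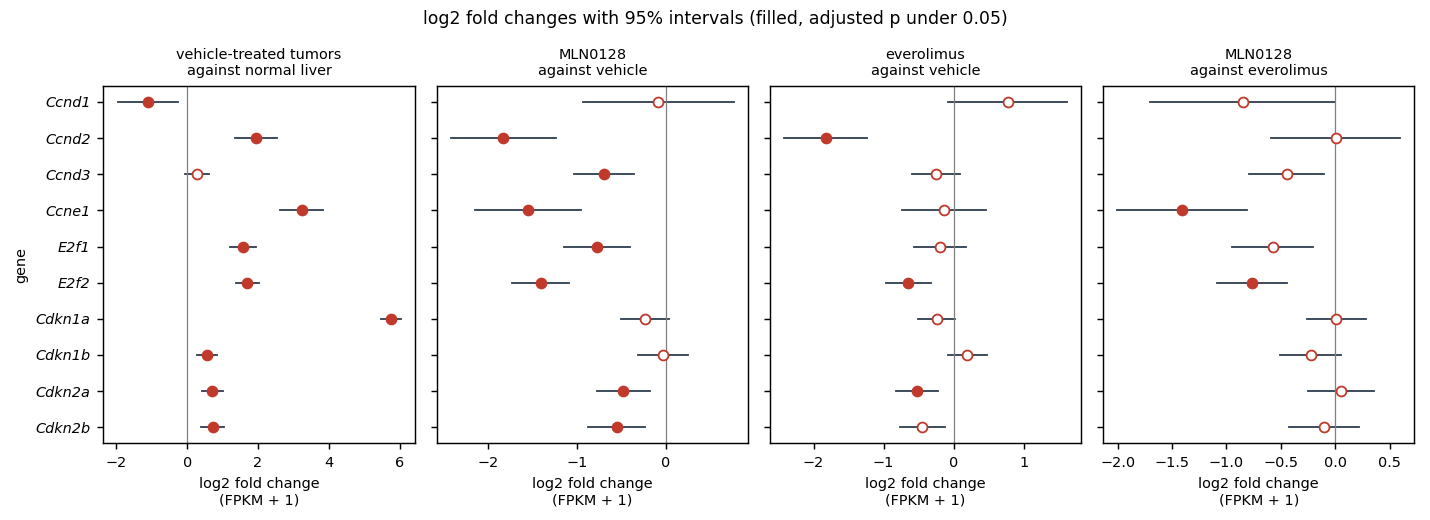
log2 fold changes of the 10 genes on the log2(FPKM + 1) scale in 4 comparisons, with each axis scaled on its own and lines giving unadjusted 95% intervals. Filled points passed limma's moderated test at an adjusted p under 0.05: 9 genes between vehicle and normal liver, 7 for MLN0128, 3 for everolimus and 2 between the drugs. *Cdkn2a* and *Cdkn2b* passed the filter on low values through the vehicle libraries alone.

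The D-type cyclins come first. *Ccnd1* (ENSMUSG00000070348.5; GRCm38 chr7:144929931-144939925, minus strand), encoding cyclin D1, stood at 5.47, 7.65 and 3.17 FPKM in normal liver and at 1.69, 0.927 and 3.42 FPKM with vehicle. It stood at 1.49, 2.02 and 1.57 FPKM with MLN0128 and at 2.90, 7.83 and 2.30 FPKM with everolimus. The vehicle and MLN0128 libraries were low, but vehicle replicate 3 lay above normal liver replicate 3, and everolimus replicate 2 was the highest of the 12 libraries, far above the other everolimus libraries. Means were 5.43 ± 2.24 FPKM for normal liver, 2.01 ± 1.28 for vehicle, 1.69 ± 0.286 for MLN0128 and 4.34 ± 3.03 for everolimus (SD, n = 3). Vehicle-treated tumors held less *Ccnd1* than normal liver (log2 fold change −1.12, SE 0.388, adjusted p = 0.0228) and so did MLN0128-treated tumors (−1.20, adjusted p = 0.0151). The call with vehicle was lost when any of 4 libraries was left out (adjusted p = 0.0576, 0.0920, 0.0577 and 0.0968 without normal liver replicates 1 and 2 and vehicle replicates 1 and 2), and with plain read totals in place of the authors' scaling (−0.40, adjusted p = 0.377). The call with MLN0128 was lost without normal liver replicate 2 (−0.95, adjusted p = 0.0660), with MLN0128 replicate 3 alone (−1.26, adjusted p = 0.0904) and with plain read totals (−0.39, adjusted p = 0.390). Neither drug group differed from vehicle by the test: the log2 fold change was −0.08 (95% interval −0.93 to 0.77, adjusted p = 0.894) for MLN0128 and 0.77 (−0.08 to 1.62, adjusted p = 0.229) for everolimus. Exons of *Ccnd1* share 1100 of 4709 bases with *LTO1* on the opposite strand, and whether reads were counted by strand is not given in the sources used here. Smaller overlaps with genes on the opposite strand were found for *Ccnd2* (372 and 368 of 9409 bases), *Ccnd3* (361 of 8775, with *Bysl*) and *Cdkn1a* (273 of 3553).

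*Ccnd2* (ENSMUSG00000000184.12; chr6:127125162-127152193, minus strand), encoding cyclin D2, stood at 1.61, 1.45 and 1.74 FPKM in normal liver and at 7.02, 9.23 and 11.2 FPKM with vehicle. It stood at 1.49, 1.4 and 2.75 FPKM with MLN0128 and at 3.09, 2 and 0.819 FPKM with everolimus. Every vehicle library lay above every other library, and both drug groups overlapped with normal liver. The increase in vehicle-treated tumors was 5.72-fold in means (9.15 ± 2.09 against 1.60 ± 0.145 FPKM; log2 fold change 1.95, SE 0.271, adjusted p = 5.40e-05). *Ccnd2* was 4.87-fold lower with MLN0128 (1.88 ± 0.755 FPKM; −1.83, SE 0.271, adjusted p = 7.07e-04, treat adjusted p = 0.0271). It was 4.65-fold lower with everolimus (1.97 ± 1.14 FPKM; −1.83, SE 0.271, adjusted p = 0.00237, treat adjusted p = 0.0562). The drugs were not told apart from each other (difference 0.00, 95% interval −0.59 to 0.60), nor from normal liver (0.12 for each, adjusted p = 0.706 and 0.713). With MLN0128 replicate 3 alone, which held no *Xist*, the log2 fold change against vehicle was −1.42 (adjusted p = 0.0382). With plain read totals *Ccnd2* passed the test as higher with MLN0128 than in normal liver (0.76, adjusted p = 0.0331).

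*Ccnd3* (ENSMUSG00000034165.16; chr17:47505051-47599691, plus strand), encoding cyclin D3, stood at 4.25, 5.28 and 3.63 FPKM in normal liver and at 6.02, 5.09 and 5.44 FPKM with vehicle. It stood at 2.80, 2.96 and 3.31 FPKM with MLN0128 and at 4.41, 3.53 and 5.73 FPKM with everolimus. The MLN0128 libraries were the lowest and overlapped with no other group, while the other groups overlapped with each other. *Ccnd3* was 1.82-fold lower with MLN0128 than with vehicle (log2 fold change −0.70, SE 0.156, adjusted p = 0.00618; −0.59, adjusted p = 0.126, with MLN0128 replicate 3 alone). The differences from normal liver depended on the scaling: with vehicle 0.28 (adjusted p = 0.125) became 1.02 (adjusted p = 8.83e-05) with plain read totals. With MLN0128, −0.41 (adjusted p = 0.0318) turned into 0.43 (adjusted p = 0.0255) with plain read totals, under which the median of all tested genes moved from 0.05 to 0.73.

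Summed over the 3 genes, D-type cyclin mRNA came to 11.4 ± 2.92 FPKM for normal liver, 16.7 ± 2.94 for vehicle, 6.60 ± 0.944 for MLN0128 and 10.9 ± 2.29 for everolimus (SD, n = 3). *Ccnd1* made up 48.3%, 53.2% and 37.1% of this sum in normal liver and 11.5%, 6.08% and 17.0% in the vehicle libraries. It made up 25.8%, 31.7% and 20.6% under MLN0128 and 27.9%, 58.6% and 26.0% under everolimus. The 3 vehicle libraries thus held the lowest *Ccnd1* shares of the 12, without overlap, and everolimus overlapped with both normal liver and MLN0128. The share of *Ccnd2* was 54.7% ± 6.52 with vehicle, against 14.9% ± 5.18 in normal liver, 27.9% ± 7.29 with MLN0128 and 18.0% ± 10.6 with everolimus. *Ccnd3* held 33.8% ± 6.88 with vehicle, 38.9% ± 3.14 in normal liver, 46.1% ± 2.55 with MLN0128 and 44.5% ± 19.3 with everolimus. Between vehicle and normal liver the *Ccnd1* share differed by −34.7 percentage points, and it was 14.5 points higher with MLN0128 and 26.0 points higher with everolimus than with vehicle (two-sided exact permutation p = 0.1 each, the smallest that 3 against 3 libraries allow). Without everolimus replicate 2 the last difference was 15.4 points. The difference between MLN0128 and vehicle was 9.27 points by recovered reads in place of FPKM, and 9.04 points with MLN0128 replicate 3 alone. Being ratios within a library, these shares do not depend on the scaling between libraries.

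**Figure D2:**
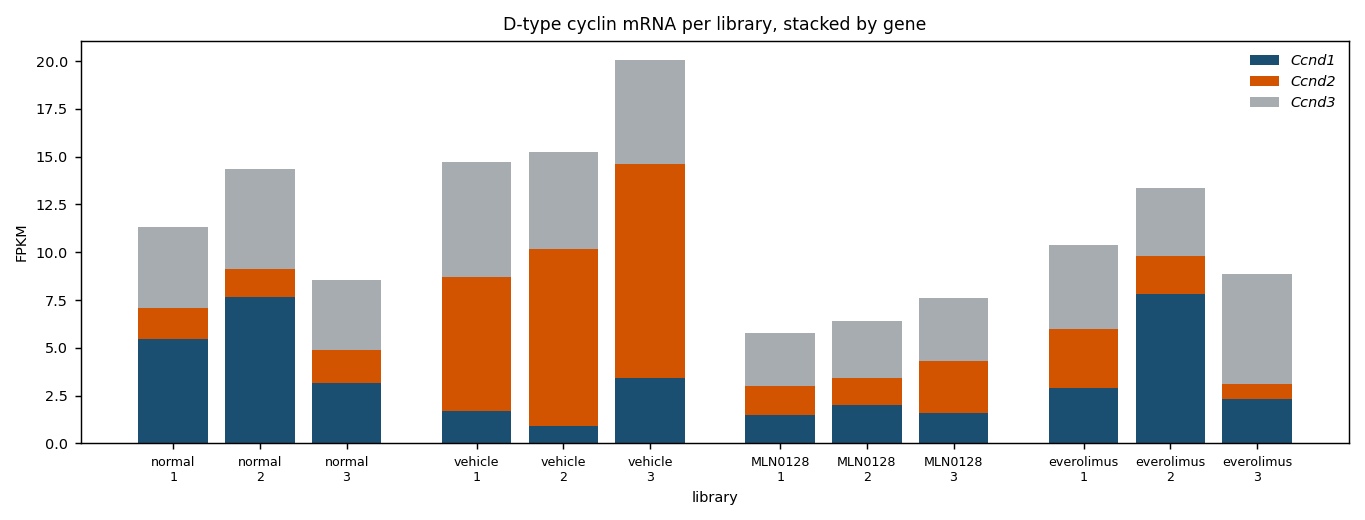
FPKM of *Ccnd1*, *Ccnd2* and *Ccnd3* stacked in each of the 12 libraries. *Ccnd2* makes up 47.7% to 60.5% of the sum in the vehicle libraries and 9.26% to 36.0% in all other libraries, and everolimus replicate 2 stands out by *Ccnd1*.

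*Ccne1* (ENSMUSG00000002068.16; chr7:38097984-38107534, minus strand), encoding cyclin E1, stood at 1.88, 3.37 and 1.37 FPKM in normal liver and at 25.5, 31.0 and 27.9 FPKM with vehicle. It stood at 6.92, 7.53 and 13.6 FPKM with MLN0128 and at 31.2, 18.8 and 27.8 FPKM with everolimus. The MLN0128 libraries lay between normal liver and the other tumors without overlap, and those with everolimus spread around those with vehicle. The rise in vehicle-treated tumors was 12.7-fold in means (28.1 ± 2.76 against 2.21 ± 1.04 FPKM; log2 fold change 3.23, SE 0.273, adjusted p = 1.08e-06). *Ccne1* was 3.01-fold lower with MLN0128 than with vehicle (9.35 ± 3.69 FPKM; −1.54, SE 0.273, adjusted p = 0.00178, treat adjusted p = 0.0797), and still 4.24-fold above normal liver (1.68, adjusted p = 1.55e-04). With everolimus it stood at 25.9 ± 6.41 FPKM, and the difference from vehicle was −0.14 (95% interval −0.74 to 0.46, adjusted p = 0.795). Between the drugs it was 2.77-fold lower with MLN0128 (−1.41, SE 0.273, adjusted p = 0.0135). MLN0128 replicate 3, the library of that group without *Xist*, was the highest of the 3. With that library alone, and the spread of the other groups assumed for it, the difference from vehicle was −0.99 (adjusted p = 0.0820) and that from everolimus −0.85 (adjusted p = 0.213).

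**Figure D3:**
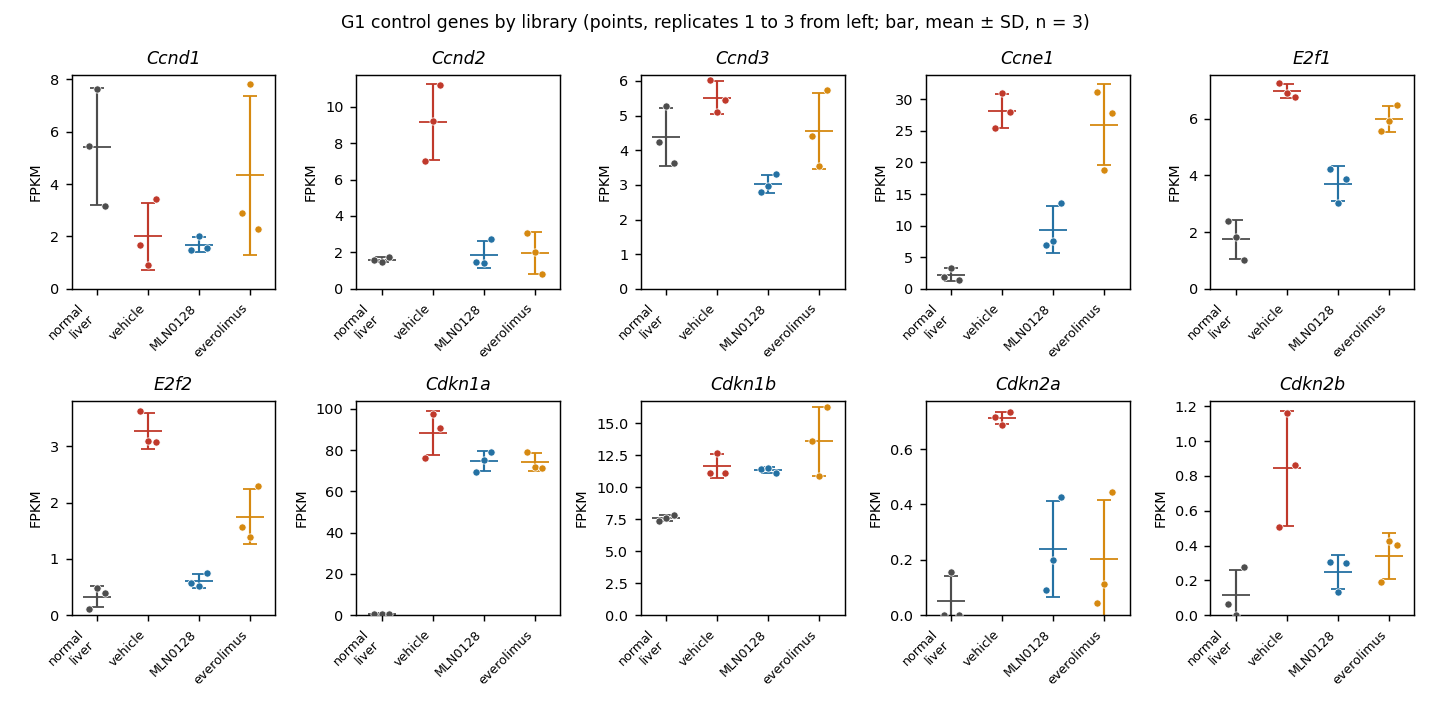
FPKM of the 10 genes in each library, 1 panel per gene with its own axis from 0, where points are libraries and bars the mean ± SD (n = 3). *Ccnd2*, *Cdkn2a*, *Cdkn2b*, *E2f1* and *E2f2* have every vehicle library above every library of the other groups, and *Cdkn1a* lies under 1 FPKM in normal liver and between 69.6 and 97.3 FPKM in the tumors.

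The inhibitors of the p21 and p27 class were raised in tumors with either drug or none. *Cdkn1a* (ENSMUSG00000023067.14; chr17:29090976-29100727, plus strand), encoding p21, stood at 0.444, 0.766 and 0.755 FPKM in normal liver and at 76.3, 97.3 and 90.9 FPKM with vehicle. It stood at 69.6, 75.0 and 79.1 FPKM with MLN0128 and at 79.1, 71.6 and 71.5 FPKM with everolimus. The tumor groups overlapped with each other and were far above normal liver. In means the rise with vehicle was 135-fold (88.2 ± 10.8 against 0.655 ± 0.183 FPKM), or 5.75 on the log2 scale (SE 0.123, adjusted p = 7.85e-11) which the added 1 FPKM makes smaller than the ratio. Against vehicle the difference was −0.23 (95% interval −0.50 to 0.04, adjusted p = 0.170) for MLN0128 and −0.24 (−0.51 to 0.03, adjusted p = 0.232) for everolimus. *Cdkn1a* was the most abundant of the 10 genes per length in every tumor library, while in normal liver *Cdkn1b* had the highest mean.

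*Cdkn1b* (ENSMUSG00000003031.14; chr6:134920401-134925513, plus strand), encoding p27, stood at 7.37, 7.61 and 7.83 FPKM in normal liver and at 11.1, 12.7 and 11.1 FPKM with vehicle. It stood at 11.4, 11.5 and 11.1 FPKM with MLN0128 and at 13.6, 10.9 and 16.3 FPKM with everolimus. Every tumor library exceeded every normal liver, and the tumor groups overlapped. The rise with vehicle was 1.53-fold in means (11.6 ± 0.924 against 7.60 ± 0.230 FPKM; log2 fold change 0.55, SE 0.128, adjusted p = 0.00227), which did not pass treat (adjusted p = 1). Against vehicle the difference was −0.03 (95% interval −0.31 to 0.25, adjusted p = 0.871) for MLN0128 and 0.19 (−0.09 to 0.47, adjusted p = 0.362) for everolimus.

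The INK4 inhibitor genes lie side by side on chromosome 4 and were expressed at low levels. *Cdkn2a* (ENSMUSG00000044303.6; chr4:89274471-89294653, minus strand) was listed at 0, 0.155 and 0 FPKM in normal liver and at 0.717, 0.688 and 0.733 FPKM with vehicle. It was listed at 0.0901, 0.2 and 0.428 FPKM with MLN0128 and at 0.0452, 0.113 and 0.445 FPKM with everolimus. These correspond to 0, 2 and 0 reads for normal liver, 18, 17 and 20 for vehicle, 3, 5 and 12 for MLN0128 and 1, 4 and 13 for everolimus. Vehicle stood above all other libraries, replicate 3 was the highest of each drug group, and the value per gene pools the transcripts of p16INK4a and p19ARF. The log2 fold change was 0.71 (SE 0.137, adjusted p = 6.78e-04) from normal liver to vehicle, and 2.57 with 0.1 FPKM added in place of 1 FPKM. The decreases with MLN0128 (−0.48, adjusted p = 0.0212) and with everolimus (−0.53, adjusted p = 0.0349) were lost without several single libraries, for instance MLN0128 replicate 1 (−0.39, adjusted p = 0.0910) or everolimus replicate 1 (−0.43, adjusted p = 0.142).

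*Cdkn2b* (ENSMUSG00000073802.5; chr4:89306299-89311039, minus strand), encoding p15INK4b, was listed at 0.0667, 0 and 0.276 FPKM in normal liver and at 0.504, 1.16 and 0.865 FPKM with vehicle. It was listed at 0.304, 0.135 and 0.301 FPKM with MLN0128 and at 0.190, 0.428 and 0.404 FPKM with everolimus, from at most 34 reads in any library. Vehicle lay above the other groups without overlap. The log2 fold change was 0.72 (SE 0.146, adjusted p = 9.58e-04) from normal liver to vehicle and −0.55 (adjusted p = 0.0144) from vehicle to MLN0128, the latter lost without vehicle replicate 2 (−0.43, adjusted p = 0.0533). The difference of −0.45 with everolimus did not pass (adjusted p = 0.0739), but did without vehicle replicate 1 (−0.59, adjusted p = 0.0442). *Cdkn2a* and *Cdkn2b* passed the filter on low values (0.5 FPKM in 3 libraries) through the vehicle libraries alone, so the differences of these genes from vehicle were in part fixed by the filter. The counts above include these differences, which lend those counts no support. *E2f2* passed it through the tumor libraries alone, so its differences from normal liver were in part fixed as well.

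*E2f1* (ENSMUSG00000027490.17; chr2:154559407-154569892, minus strand), an activator of the genes of DNA replication, stood at 2.38, 1.84 and 1.03 FPKM in normal liver and at 7.25, 6.92 and 6.78 FPKM with vehicle. It stood at 4.22, 3.03 and 3.88 FPKM with MLN0128 and at 5.57, 5.93 and 6.49 FPKM with everolimus. None of the 4 groups overlapped with another: vehicle was highest, followed by everolimus, MLN0128 and normal liver. *E2f1* was 3.99-fold higher with vehicle than in normal liver (6.98 ± 0.241 against 1.75 ± 0.679 FPKM; log2 fold change 1.57, SE 0.170, adjusted p = 7.16e-06). It was 1.88-fold lower with MLN0128 than with vehicle (3.71 ± 0.613 FPKM; −0.77, SE 0.170, adjusted p = 0.00569). The value with MLN0128 replicate 3 alone was −0.71 (adjusted p = 0.0810). The difference with everolimus was −0.19 (95% interval −0.56 to 0.18, adjusted p = 0.509), and that between the drugs −0.58 (−0.95 to −0.21, adjusted p = 0.0541) fell short of the threshold, but passed without normal liver replicate 1 (adjusted p = 0.0431) or 3 (adjusted p = 0.0230).

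*E2f2* (ENSMUSG00000018983.9; chr4:136172394-136196057, plus strand), another activator E2F, stood at 0.114, 0.483 and 0.393 FPKM in normal liver and at 3.63, 3.10 and 3.08 FPKM with vehicle. It stood at 0.563, 0.519 and 0.745 FPKM with MLN0128 and at 1.56, 1.39 and 2.30 FPKM with everolimus. As with *E2f1*, the 4 groups did not overlap and kept the order vehicle, everolimus, MLN0128, normal liver. *E2f2* was 9.91-fold higher with vehicle than in normal liver in means (3.27 ± 0.312 against 0.330 ± 0.192 FPKM; log2 fold change 1.69, SE 0.147, adjusted p = 1.30e-06). With MLN0128 it was 5.37-fold lower than with vehicle (0.609 ± 0.120 FPKM; −1.41, SE 0.147, adjusted p = 1.18e-04, treat adjusted p = 0.00904), and −1.29 (adjusted p = 0.00949) with MLN0128 replicate 3 alone. The remaining difference from normal liver was 0.28 (95% interval −0.04 to 0.60, adjusted p = 0.102) and passed with plain read totals (0.57, adjusted p = 0.00301). With everolimus it was 1.87-fold lower than with vehicle (1.75 ± 0.484 FPKM; −0.65, SE 0.147, adjusted p = 0.0194), a call lost without vehicle replicate 1 (adjusted p = 0.0764), vehicle replicate 3 (0.0563) or everolimus replicate 1 (0.0816). Between the drugs *E2f2* was 2.87-fold lower with MLN0128 (−0.76, SE 0.147, adjusted p = 0.0133), which was lost without MLN0128 replicate 1 (adjusted p = 0.0574) or everolimus replicate 3 (0.0615). The same libraries decided *Ccne1* between the drugs (adjusted p = 0.0624 and 0.0635).

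Against normal liver, 4 of the 10 genes were higher and 2 lower with MLN0128 (background 37.1% and 35.5%), and 5 were higher with everolimus (background 35.9%). *Ccne1*, *Cdkn1a*, *Cdkn1b* and *E2f1* were higher in both. *E2f2* was added with everolimus (1.04, adjusted p = 5.32e-05), and *Ccnd1* and *Ccnd3* were lower with MLN0128.

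Profiles were compared over the 9 tumor libraries by the mean absolute difference of standardized log2(FPKM + 1), as a description over libraries that share their groups. Among the 10 genes, *Ccnd3* and *E2f2* (0.243 SD) and *E2f1* and *E2f2* (0.304 SD) were closest, and *Ccnd1* and *Cdkn2a* farthest apart (1.32 SD). Over 14374 genes, *Nkd1* (0.174 SD), *Hlx* (0.223) and *Gdf2* (0.263) were most like *Ccnd1*, against a median of 1.14 SD over all genes. *Nkd1* reached its highest tumor value, 0.413 FPKM, in everolimus replicate 2, the library in which *Ccnd1* was highest. *Aars* (0.146 SD), *Sqle* (0.201) and *Pgs1* (0.206) were most like *E2f1*, and the low-level pseudogenes and predicted genes *Serpina3e-ps* (0.210), *Gm6180* (0.282) and *Bnip3l-ps* (0.287) were most like *Cdkn1a*.

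Lists of related genes placed the 10 genes among their partners and targets. Of 24 other G1 control genes, 17 were higher and 2 lower under vehicle than in normal liver (median log2 fold change 0.79), beside 36% and 33% of all genes. These included *Cdkn1c*, encoding the inhibitor p57 (2.45, adjusted p = 3.06e-05), *Tfdp1*, the E2F dimer partner (2.38, adjusted p = 6.31e-08), and *Cdk4*, the kinase of the D-type cyclins (2.32, adjusted p = 5.20e-08). With MLN0128, 6 of the 24 were lower and 2 higher than with vehicle (median −0.09), beside 17.1% and 14.9% of all genes, among them *Cdkn1c* (−1.47, adjusted p = 0.00509), the repressor *E2f8* (−0.83, adjusted p = 0.0360) and *Tfdp2* (0.69, adjusted p = 0.00228). With everolimus, 2 were higher and 0 lower, beside 3.77% and 6.04% of all genes: *Tfdp2* (0.68, adjusted p = 0.00816) and *Cdk6* (0.53, adjusted p = 0.0113). At an unadjusted p under 0.05, for which no share over all genes is given, 3 were higher and 1 lower. Between the drugs 5 were lower with MLN0128, beside 5.54% of all genes, including the phosphatase gene *Cdc25a* (−0.65, adjusted p = 0.0243), *Ccne2*, encoding the other E-type cyclin (−0.55, adjusted p = 0.0400), and *E2f4* (−0.51, adjusted p = 0.0312).

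Of 24 E2F target genes, 22 were higher and 1 lower under vehicle than in normal liver (median 2.26), beside 36% and 33% of all genes, and were led by *Rrm2*, a subunit of ribonucleotide reductase (4.45, adjusted p = 2.26e-07). With MLN0128, under which *E2f1* and *E2f2* were both lower than with vehicle, 3 of these 24 targets were lower, beside 17.1% of all genes, and 2 were higher, beside 14.9% (median −0.16). *Mybl2*, which drives late cell cycle genes, fell by 1.40 (adjusted p = 0.00553), from 20.3, 22.4 and 16.4 FPKM with vehicle to 7.44, 4.16 and 9.89 FPKM. *Pola1*, a DNA polymerase subunit, rose by 0.58 (adjusted p = 0.0101), and *Brca1*, a DNA repair gene, fell by 0.54 (adjusted p = 0.0110). With everolimus *Ezh2* was higher (0.69, adjusted p = 0.0107) and *Brca1* lower (−0.50, adjusted p = 0.0387), beside 3.77% and 6.04% of all genes. Between the drugs 3 targets were lower with MLN0128, beside 5.54% of all genes: *Mybl2* (−1.18, adjusted p = 0.0358), *Cdc6* (−0.61, adjusted p = 0.0391) and *Slbp* (−0.46, adjusted p = 0.0415).

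Of 18 other p53 target genes, listed as the company of *Cdkn1a*, 16 were higher and 1 lower under vehicle than in normal liver (median 2.10), beside 36% and 33% of all genes. *Phlda3* (4.74, adjusted p = 3.46e-08), *Gtse1* (4.08, adjusted p = 1.21e-07) and *Eda2r* (3.61, adjusted p = 4.59e-08) led the list. With MLN0128, 3 were higher and 4 lower than with vehicle (median −0.03), shares near the 14.9% and 17.1% of all genes, the largest changes being in *Pmaip1* (−1.43, adjusted p = 0.00402), *Sesn2* (−1.14, adjusted p = 0.00336) and *Btg2* (−1.12, adjusted p = 0.00234). With everolimus 0 of the 18 changed by limma's moderated test, beside 3.77% higher and 6.04% lower over all genes. At an unadjusted p under 0.05, for which no share over all genes is given, 6 passed (1 higher, 5 lower). *Bbc3*, a death gene, was higher with MLN0128 than with everolimus (0.93, adjusted p = 0.0186).

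**Figure D4:**
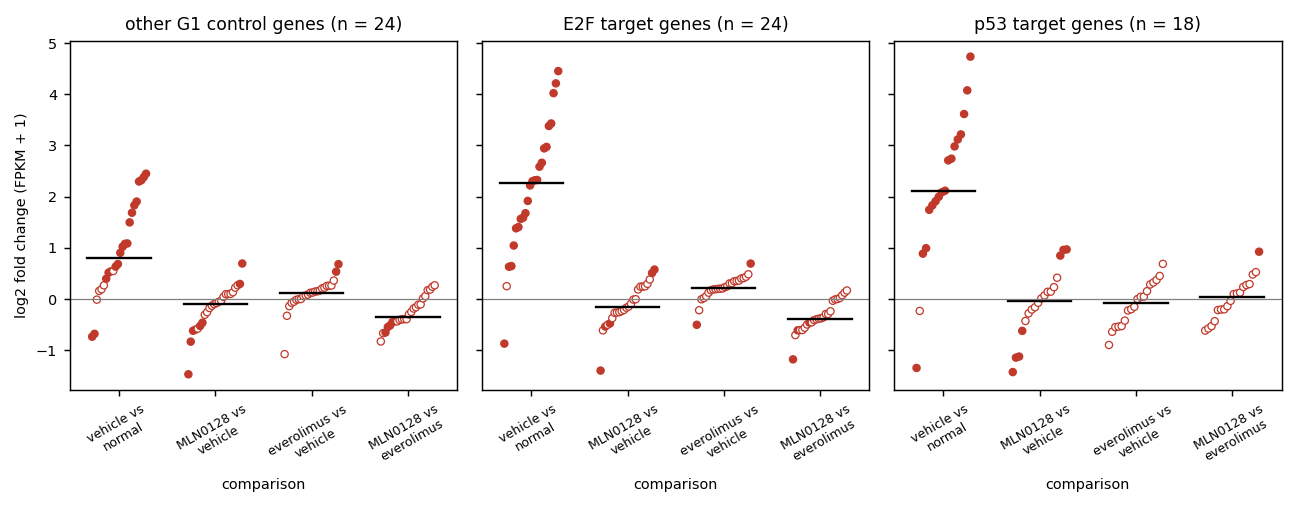
log2 fold changes on the log2(FPKM + 1) scale of 24 other G1 control genes, 24 E2F target genes and 18 p53 target genes in 4 comparisons, sorted within each, where filled points passed limma's moderated test and black lines are medians. Most points are filled and above 0 between vehicle and normal liver, where the medians are 0.79, 2.26 and 2.10, and fewer are filled between tumor groups.

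Markers of other cells moved with these comparisons, and their part in the results was not tested. In bulk tissue, fewer cells of a type and less RNA per cell cannot be told apart. The 8 macrophage markers summed to 259 to 330 FPKM for normal liver, 136 to 191 for vehicle, 67.5 to 137 for MLN0128 and 85.5 to 188 for everolimus, with 3 of 8 lower under MLN0128 and 1 of 8 lower under everolimus than under vehicle. The 8 endothelial markers summed to 54.1 to 64.6, 13.8 to 20.7, 11.3 to 15.5 and 12.1 to 20.2 FPKM in the same order. The 8 stellate cell and fibroblast markers summed to 61.5 to 84.6, 31.8 to 74.3, 49.4 to 85.8 and 57.1 to 75.7 FPKM, and 1 of 8 was higher with MLN0128 than with vehicle. This sum did not follow most of its genes. Under vehicle 5 of the 8 were higher and 3 lower than in normal liver (median log2 fold change 0.89), beside 36% and 33% of all genes. Of the cholangiocyte markers, 5 of 6 were listed and summed to 40.2 to 43.6, 36.8 to 92.5, 10.3 to 28.1 and 17.2 to 61.8 FPKM. Of these, 3 of the 4 tested were lower under each drug than under vehicle, beside 17.1% of all genes with MLN0128 and 6.04% with everolimus. Of the 10 genes, *Ccnd2*, *E2f2* and *Cdkn2a* were lower under each drug, *Cdkn2a* in part through the filter. Of the erythroid markers, 4 of 6 were listed and summed to 78.4 to 95.1, 101 to 124, 28.9 to 44.1 and 58.1 to 99.5 FPKM. Under vehicle only *Tfrc* was higher than in normal liver, and *Alas2*, *Epor* and *Klf1* were lower (median log2 fold change −1.19). With MLN0128 only *Tfrc* passed as lower than with vehicle. Lymphocyte markers, 6 of 8 listed, summed to at most 2.91 FPKM in any library, and no listed marker of any type was at 0 in all libraries of a group.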

How the data were processed

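The authors had total RNA of 3 normal livers and 9 tumors sequenced by Novogene after poly(A) capture or rRNA removal (which of these is not stated), counted reads per Ensembl gene and took symbols from org.Mm.eg.db. The submitters' processing notes name FastQC 0.11.7 and GRCm38; the aligner is not given in the sources used here. The deposited values are FPKM per gene, rounded to 3 significant digits, for 17007 rows, 22 of them with date-like names, and 4 rows with repeated names were left out. Columns were matched to groups by the labels, which give 3 weeks of treatment, whereas the results text of the study gives 3 days.

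FPKM multiplied by GENCODE M21 exon lengths (found for 16871 symbols) fell within 0.1 of a whole read for 98.2% to 98.8% of values under 20 reads, against 20% by chance, and gave the reads quoted. Since FPKM are not counts, tests were run on log2(FPKM + 1) with limma 3.58.1 in R 4.3.3, with an intensity trend and all 12 libraries in 1 model (8 residual degrees of freedom), for the 14393 genes at 0.5 FPKM or more in at least 3 libraries. P-values were adjusted by Benjamini-Hochberg over all of them, and a gene passed at an adjusted p under 0.05; limma's treat against 1.5-fold, the nearest to the method of the study, was the stricter test. Intervals are unadjusted at 95%. The labels give 3 samples a group, taken as separate mice, and p-values measure the spread between them. Shares were compared by exact permutation.

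Named from the related lists were up to 3 genes per list and comparison with the largest change among those that passed, and the 3 genes most like *Ccnd1*, *Cdkn1a* and *E2f1*. The 10 genes and all lists were chosen with earlier results of these data known. A withheld gene of the E2F target list is not reported here. The tests were tried on simulated data. Alternatives covered the threshold, pseudocount, filter, scaling, which libraries were modelled, a block for the replicate number, and the removal of each library. Tables were handled with pandas 2.3.3, SciPy 1.17.1 and matplotlib 3.10.9.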

Additional observations from a re-analysis of the deposited data

How the results depend on the processing

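The number of the 10 genes that changed moved by over 1.5 times under few settings. By treat it was 5 for vehicle against normal liver, 2 for MLN0128 against vehicle, 0 for everolimus against vehicle, 0 between the drugs and 2 for MLN0128 against normal liver. In the last comparison 2457 of all 14393 genes were higher and 2899 lower by treat. Without the libraries that held *Xist* it was smaller for MLN0128 against vehicle and between the drugs, as was the count over all genes. In that setting 1 library was left in the group, and the spread of the other groups was assumed for it. With 0.1 FPKM added in place of 1 FPKM it was 1 for everolimus against vehicle, beside 498 higher and 783 lower of all 14393 genes. With only the 2 groups compared in the model it was 1 for everolimus against vehicle (beside 310 higher and 592 lower). Between the drugs it was then 0, beside 1 higher and 5 lower of all genes. The cause was not tested. With each library left out in turn, the counts ran from 8 to 9 for vehicle against normal liver, 6 to 7 for MLN0128 and 1 to 3 for everolimus against vehicle, 0 to 3 between the drugs, and 4 to 6 for MLN0128 and 5 to 5 for everolimus against normal liver. The count was 1 for everolimus without vehicle replicate 3 (beside 170 higher and 400 lower of all genes) or everolimus replicate 1 (137 and 399). It was 0 between the drugs without MLN0128 replicate 1 (104 and 108) or everolimus replicate 3 (86 and 96). With all 12 libraries, 542 genes were higher and 870 lower for everolimus against vehicle, and 575 and 797 between the drugs. The difference in *Ccnd1* share ran from −39.2 to −31.2 points for vehicle against normal liver, 11.6 to 17.2 for MLN0128 and 15.4 to 31.7 for everolimus against vehicle, −17.2 to −0.93 between the drugs, and −24.7 to −16.7 for MLN0128 and −19.3 to −2.95 for everolimus against normal liver.

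Of 32 called log2 fold changes, 18 kept their call under every alternative but treat, and 1 changed direction: *Ccnd3* with MLN0128 against normal liver, 0.43 with plain read totals. The other changes of direction were of values that did not pass. With plain read totals these were *Ccnd1* (0.016) and *Cdkn1b* (0.11) for MLN0128 against vehicle and *Ccnd1* (0.40) for everolimus against normal liver. With quantile normalization they were *Cdkn1a* (0.13) and *Cdkn1b* (0.082) for MLN0128 against vehicle, *Ccnd2* (−0.070) and *Cdkn2a* (−0.0089) between the drugs, *Ccnd2* (−0.054) and *Cdkn2b* (−0.028) for MLN0128 and *Ccnd3* (−0.082) for everolimus against normal liver. Leaving out a library in turn gave ranges that crossed 0: *Ccnd1* −0.36 to 0.24 and *Cdkn1b* −0.062 to 0.027 for MLN0128 against vehicle, and *Ccne1* −0.28 to 0.068 for everolimus against vehicle. Between the drugs these were *Ccnd2* −0.31 to 0.27, *Cdkn1a* −0.034 to 0.057 and *Cdkn2a* −0.056 to 0.19, and against normal liver *Ccnd2* −0.087 to 0.23 for MLN0128 and *Ccnd2* −0.15 to 0.43 and *Ccnd3* −0.11 to 0.18 for everolimus.

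The labels share replicate numbers between groups, but the numbers did not pair the libraries: deviations of same-numbered libraries correlated from −0.29 to 0.15 (median −0.06), over 0.1 in 1 of 18 pairs. With the replicate number as a block, 9, 7, 3, 2, 5 and 5 genes changed, in the order vehicle against normal liver, MLN0128 against vehicle, everolimus against vehicle, between the drugs, MLN0128 and everolimus against normal liver, and the call lost was *Ccnd3* with MLN0128 against normal liver. The shares kept their differences under the block, with exact p = 0.25 for all comparisons but everolimus against normal liver (0.5). Depth limits *Cdkn2a* and *Cdkn2b*, for which 3 reads correspond to 0.0845 to 0.245 and 0.0713 to 0.207 FPKM.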
